A study of Mus musculus with 13 samples.

Results

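Immediate early genes were described in newborn mouse retinal cells that had received the transcription factor Ikzf1 (Ikaros), across 4 control and 4 Ikzf1 RNA-seq libraries. The 10 genes were Fos, Fosb, Jun, Junb, Egr1, Egr2, Egr3, Egr4, Nr4a1 and Ier2, out of 35734 genes in the authors' deposited table. They were named as a family and taken up because Egr3 was much lower in the Ikzf1 libraries, so the comparison of the 2 groups chose them and their differences are given as a description, with no test. All 10 passed the filter on low counts, among 15576 genes tested.

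Dissociated retinas of CD1 mice at postnatal day 0 were transfected, kept in culture for 9 h and sorted for GFP. Control cells received GFP (400000 cells per replicate), and the other group received Ikzf1 linked to GFP by an internal ribosome entry site (300000 cells per replicate). The labels give the cells as retinal progenitors and the 4 replicates of each group as biological, without saying which retinas or animals went into each. Both groups shared dissociation, transfection, culture and another dissociation before the sort, and no RNA-seq library of intact retina was analysed here. The labels do not name the promoter of the RNA-seq constructs.

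Immediate early genes are switched on within minutes of a signal without new protein synthesis, mostly by factors already bound to the serum response element (Srf with its ternary complex partners) or the cyclic AMP response element (Creb1 and relatives). Most encode transcription factors: Fos and Jun proteins pair to form AP-1, and Egr and Nr4a proteins are zinc finger and orphan nuclear receptor factors. They are also known to rise when tissue is dissociated or cells are handled, so their level in cultured, sorted cells need not be that of the intact retina.

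Short stretches before the start sites of 5 members are shown because these genes carry the sequence elements through which the family is known to respond. RefSeq (GRCm38.p6) promoters matched 7 of the 10 genes by symbol: Fos, Fosb, Jun, Junb, Egr2, Egr4 and Nr4a1. Egr1, Egr3 and Ier2 were not matched. The capitals mark TGACG, the core of the cyclic AMP response element, on either strand (it reads CGTCA on the minus strand), and, in Egr2 only, the CArG box, the sequence bound by Srf. The stretches are Fos, chr12:85473740-85473889 on the plus strand; Fosb, chr7:19310046-19310195 on the minus strand; Junb, chr8:84978749-84978898 on the minus strand; Egr4, chr6:85513590-85513789 on the minus strand; and Egr2, chr10:67537719-67537868 on the plus strand, before a start site inside the gene as the authors' table bounds it.
Fos: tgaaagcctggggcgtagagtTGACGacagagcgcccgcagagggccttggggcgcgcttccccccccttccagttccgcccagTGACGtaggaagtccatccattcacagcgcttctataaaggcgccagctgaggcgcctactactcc
Fosb: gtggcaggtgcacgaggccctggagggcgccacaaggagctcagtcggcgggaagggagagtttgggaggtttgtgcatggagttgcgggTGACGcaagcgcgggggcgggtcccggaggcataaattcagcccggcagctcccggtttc
Junb: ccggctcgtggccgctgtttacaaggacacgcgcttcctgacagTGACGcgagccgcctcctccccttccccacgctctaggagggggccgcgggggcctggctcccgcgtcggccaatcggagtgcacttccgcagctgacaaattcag
Egr4: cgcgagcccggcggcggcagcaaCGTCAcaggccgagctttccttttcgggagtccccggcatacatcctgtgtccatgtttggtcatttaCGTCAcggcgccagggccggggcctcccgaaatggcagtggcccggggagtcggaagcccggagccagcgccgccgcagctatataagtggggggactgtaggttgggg
Egr2: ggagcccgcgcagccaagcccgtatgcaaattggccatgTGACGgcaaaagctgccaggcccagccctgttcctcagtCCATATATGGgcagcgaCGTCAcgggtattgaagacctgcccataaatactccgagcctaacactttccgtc

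TGACG was present in the 250 bases before a start site in 6 of the 7 matched genes, all but Jun, and in at least 1 window of 19.8% of the 27025 genes in the table. Counted by start site, it was in 8 of their 11 windows, 5 of which belong to Egr2 and in part overlap, and in 17.8% of 32851 windows of that length. In Fos it began 129 and 66 bases before the start, in Fosb 60, in Junb 106 and in Egr4 177 and 109. The Egr2 stretch held it 111 and 55 bases before the start with a CArG box between them, 72 bases before the start. Nr4a1 had 4 copies, the nearest beginning 40 bases before its start. The CArG box was found in the same window of Egr2 alone among the 7 genes and in 1.62% of all genes. GGGAA, the core bound by Ikaros proteins, was in 5 of the 7 genes and in 59.4% of all genes. TGACG, CArG box and GGGAA matches did not overlap one another in the stretches shown. These matches describe letters in a window and say nothing about binding in these cells.

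Estimated read pairs per RNA library ranged from 21.4 to 30.5 M. Ikzf1 itself, in CPM (read counts per 1 M, scaled by TMM so that libraries compare), averaged 74.3 ± 7.67 in control libraries against 181157 ± 7288 where it had been transfected (mean ± SD of 4 libraries, as throughout), which matched the labels in all 8 libraries. It took 15.9 to 17.2% of the reads of an Ikzf1 library. Mitochondrial genes took 2.71 ± 0.219% of control reads and 2.32 ± 0.140% of Ikzf1-library reads. Progenitor markers were present in both groups: Sox2 was at 160.04 ± 5.38 and 113 ± 3.72 CPM, and Pax6 at 356 ± 6.57 and 443 ± 11.4 CPM, in control and Ikzf1 libraries. Across all genes tested, edgeR's quasi-likelihood test with Benjamini-Hochberg adjustment called 9243 (59.3%) at an adjusted p under 0.05, with 4662 lower and 4581 higher in the Ikzf1 libraries.

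All 10 immediate early genes were lower in the Ikzf1 libraries past that threshold, against 29.9% of all genes tested, and 0 were higher, against 29.4%. In each of them, every Ikzf1 library lay below every control library, which held for 26.7% of all genes (53.2% were without overlap in either direction). Since the genes were chosen on this contrast, nothing is read from these counts. In size, 6 members were past the threshold with a log2 fold change of -1.0 or below, as were 6.34% of all genes tested. The remaining 4 members had a smaller change. The median log2 fold change (Ikzf1 minus control) was -1.39 over the members and 0.00 over all genes tested. In these bulk libraries, fewer cells with a transcript and less of it per cell cannot be told apart.

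**Figure D1:**
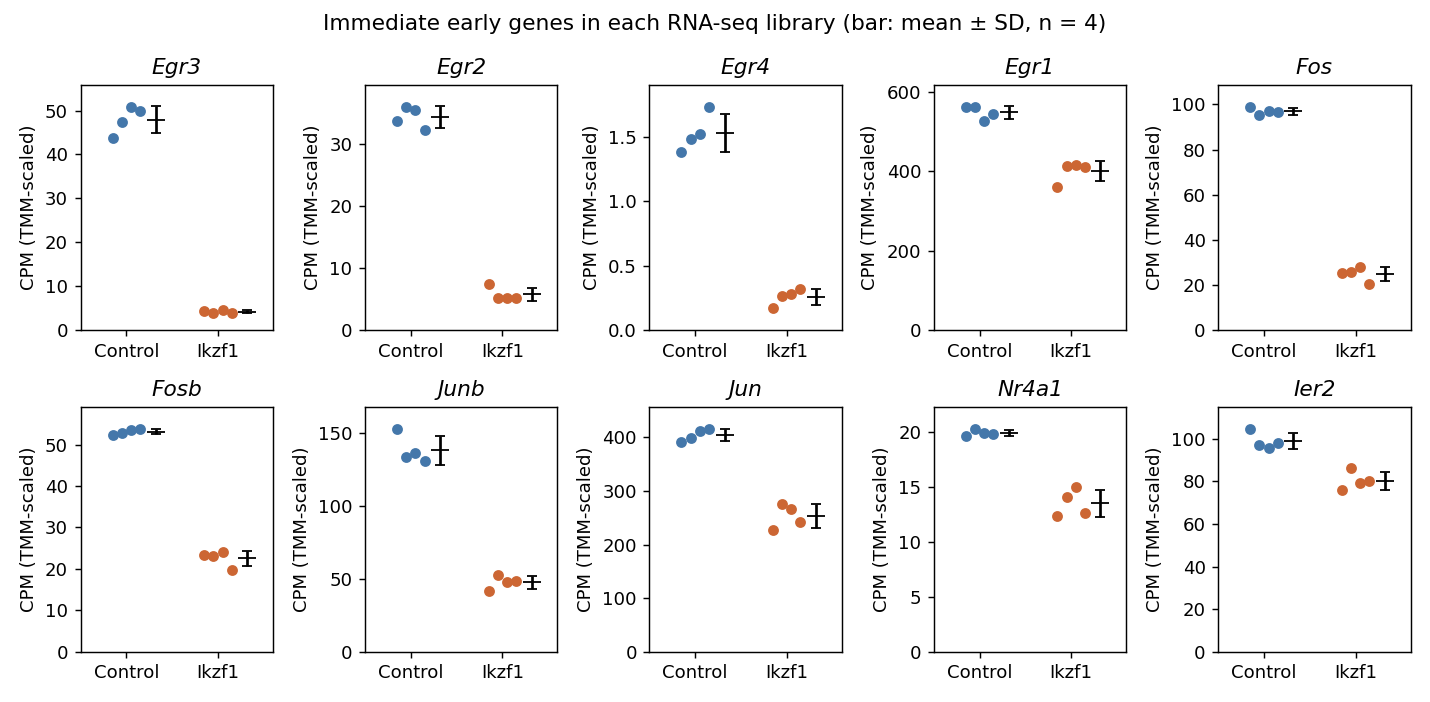
TMM-scaled CPM of each immediate early gene (vertical axis, from 0, its own scale per gene) in the 4 control and 4 Ikzf1 libraries. Points are libraries in replicate order and bars give the mean ± SD. Egr3 sits between 43.8 and 50.8 CPM in the controls and between 3.8 and 4.54 CPM in the Ikzf1 libraries, while the Ier2 groups come closest to each other.

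Among the Egr genes, which encode zinc finger factors that bind GC-rich sites, Egr3 (chr14:70077203-70082614, plus strand) differed most. Its CPM was 43.8, 47.3, 50.8 and 49.8 in control replicates 1 to 4 and 4.31, 3.8, 4.54 and 3.88 in Ikzf1 replicates 1 to 4. The groups lay far apart: the lowest control was 9.64 times the highest Ikzf1 library. The means were 47.9 ± 3.14 and 4.13 ± 0.351 CPM, 11.6-fold lower with Ikzf1 (log2 fold change -3.54, SE 0.08). By its fitted fall, Egr3 ranked 11 among all genes tested. Its Ikzf1 values still rested on 87 to 114 read pairs per library.

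Egr2 (chr10:67535475-67542188, plus strand), a factor known from hindbrain and Schwann cell development, came next. Its CPM was 33.7, 35.9, 35.5 and 32.2 in the controls and 7.36, 5.20, 5.09 and 5.21 in the Ikzf1 libraries. The controls lay close together, and Ikzf1 replicate 1 stood above the rest of its group. Means of 34.3 ± 1.73 and 5.72 ± 1.09 CPM gave a 6.01-fold lower level (log2 fold change -2.59, SE 0.09).

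Egr4 (chr6:85511121-85513589, minus strand) was the least abundant member. It had 35, 34, 42 and 50 read pairs in the controls and 4, 6, 7 and 9 in the Ikzf1 libraries, or 1.53 ± 0.146 and 0.257 ± 0.0628 CPM. The groups did not overlap, and with so few reads its log2 fold change of -2.54 had the widest error of the family (SE 0.33).

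Egr1, a widely used marker of cell activity, was by contrast only 1.37-fold lower. Its CPM was 561, 562, 527 and 543 in the controls and 362, 414, 415 and 412 in the Ikzf1 libraries (548 ± 16.6 and 401 ± 26.1; log2 fold change -0.45, SE 0.05). Ikzf1 replicate 1 was the low library, whereas it was the high one for Egr2. In TPM, a unit corrected for transcript length so that genes compare, Egr1 made up 86.8 ± 0.876% of the summed Egr level in control libraries and 97.5 ± 0.637% in Ikzf1 libraries. Egr3 went from 6.73 ± 0.416% to 0.832 ± 0.0932% of that sum and Egr2 from 6.15 ± 0.667% to 1.59 ± 0.587%. Because TPM has the same total in every library, Ikzf1 reads lower the TPM of all other genes in the Ikzf1 libraries. Shares within a family are not affected.

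The Fos genes encode the AP-1 subunits that cannot pair with themselves and need a Jun partner. Fos (chr12:85473890-85477273, plus strand) was at 98.8, 95.2, 97.1 and 96.7 CPM in the controls and at 25.2, 25.5, 27.7 and 20.3 CPM in the Ikzf1 libraries. The controls were nearly level, and Ikzf1 replicate 4 was the lowest. Means of 96.9 ± 1.47 and 24.7 ± 3.14 CPM gave a 3.92-fold lower level (log2 fold change -1.98, SE 0.07).

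Fosb (chr7:19302696-19310051, minus strand) ranged from 52.4 to 53.8 CPM in the controls and from 19.8 to 24.0 CPM in the Ikzf1 libraries, again with Ikzf1 replicate 4 lowest. It was 2.36-fold lower (log2 fold change -1.24, SE 0.06). Measured in TPM, Fos made up 73.5 ± 2.10% of Fos and Fosb together in control libraries and 61.9 ± 2.76% in Ikzf1 libraries. Their sum went from 134 ± 4.80 to 33.3 ± 2.94 TPM. Rescaled to leave Ikzf1 out, Fos went from 98.5 ± 4.80 to 25.3 ± 3.04 TPM and Fosb from 35.6 ± 3.00 to 15.5 ± 1.12 TPM.

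The Jun genes encode the subunits that pair with Fos proteins or with each other, and Junb is the weaker activator of this pair. Junb (chr8:84976910-84978718, minus strand) was at 153, 133, 136 and 130.5 CPM in the controls and at 41.7, 52.2, 47.7 and 48.1 CPM in the Ikzf1 libraries. Replicate 1 was the highest control and, in the other group, the lowest library. Junb was 2.91-fold lower (138 ± 9.92 and 47.4 ± 4.33 CPM; log2 fold change -1.54, SE 0.06).

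Jun (chr4:95049034-95052222, minus strand) ranged from 391 to 416 CPM in the controls and from 227 to 276 CPM in the Ikzf1 libraries. Its 1.6-fold lower level (log2 fold change -0.68, SE 0.05) was the smaller change of the pair. In TPM, Jun went from 61.5 ± 2.25% to 74.4 ± 0.883% of Jun and Junb together, as their sum went from 412 ± 5.89 to 183 ± 15.7 TPM. With TPM rescaled to leave Ikzf1 out, Jun went from 254 ± 8.81 to 166 ± 15.3 and Junb from 159 ± 10.4 to 57.3 ± 5.75.

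Nr4a1 (Nur77; chr15:101254269-101274795, plus strand), an orphan nuclear receptor, was at 19.6, 20.2, 19.9 and 19.8 CPM in the controls and at 12.3, 14, 15 and 12.6 CPM in the Ikzf1 libraries. The controls were again tighter than the Ikzf1 libraries, and the groups did not overlap. It was 1.47-fold lower (log2 fold change -0.56, SE 0.08).

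The gene total of Nr4a1 joined opposite differences in its 2 main transcripts. ENSMUST00000023779.7 was at 18.0, 15.4, 14.8 and 15.3 CPM in the controls and at 4.57, 4.96, 7.66 and 5.81 CPM in the Ikzf1 libraries, 2.76-fold lower. ENSMUST00000228985.1 was at 1.23, 4.62, 4.86 and 4.44 CPM in the controls and at 7.43, 9.00, 7.21 and 6.69 CPM in the Ikzf1 libraries, 2.00-fold higher. Its control replicate 1, at 1.23 CPM, lay far below the other controls, and the 2.00-fold difference rests in part on it. Neither pair of groups overlapped. Of all genes tested, 53.2% were without overlap in either direction, and the share over all transcripts was not computed. The first transcript made up 79.9 ± 7.97% of Nr4a1 reads in control libraries and 42.4 ± 7.48% in Ikzf1 libraries, the other 19.0 ± 8.51% and 56.4 ± 7.18%. The 2 transcripts are 2477 and 2553 bases long, salmon divides shared reads between them by estimate, and how well the reads separate them was not tested. No other member showed such a crossing among its main transcripts: by mean share, Fos, Fosb, Egr1, Egr2 and Egr3 had the same leading transcript in both groups, although for Egr2 its share ranged from 44.3 to 100% among the Ikzf1 libraries, and Jun, Junb, Egr4 and Ier2 had 1 transcript each.

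**Figure D2:**
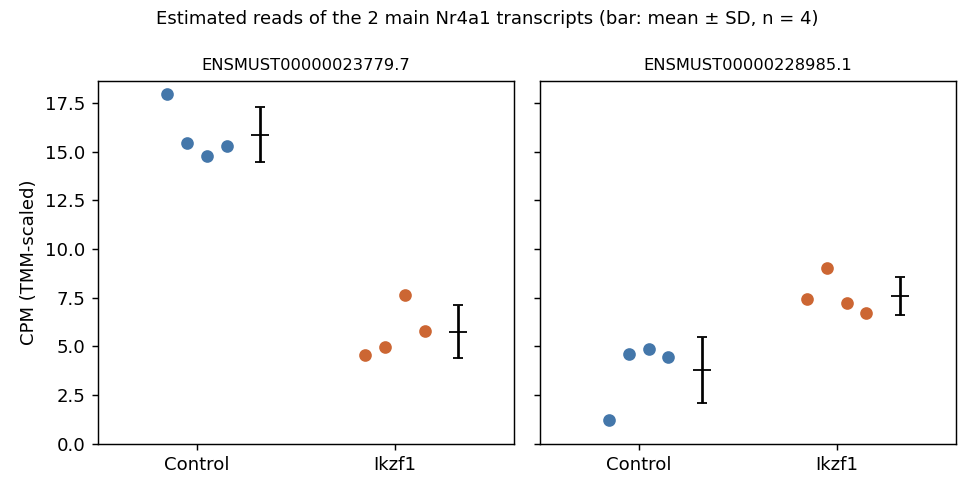
TMM-scaled CPM (vertical axis, from 0) of the 2 main Nr4a1 transcripts in control and Ikzf1 libraries, with points for libraries in replicate order and bars for the mean ± SD. The left transcript goes from 15.9 ± 1.42 to 5.75 ± 1.38 CPM and the right one goes from 3.79 ± 1.71 to 7.58 ± 0.997 CPM. Control replicate 1 is the low point of the right one, at 1.23 CPM.

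Ier2 (chr8:84661331-84662854, minus strand), a growth factor-induced nuclear protein, differed least. It ranged from 95.9 to 105 CPM in the controls and from 76.1 to 86.2 CPM in the Ikzf1 libraries. The lowest control exceeded the highest Ikzf1 library by 1.11-fold, and the mean was 1.23-fold lower (log2 fold change -0.30, SE 0.05).

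Set side by side in TPM, the 10 genes of the controls ran in the order Egr1 (351 ± 8.11), Jun (253 ± 8.80), Junb (159 ± 10.3), Ier2 (138 ± 4.44), Fos (98.2 ± 4.77), Fosb (35.5 ± 2.99), Egr3 (27.2 ± 1.46), Egr2 (24.9 ± 2.58), Nr4a1 (16.6 ± 0.227) and Egr4 (1.46 ± 0.147). Every neighbouring pair was separate except Egr3 and Egr2, whose ranges of 25.4 to 28.6 and 22.2 to 28.2 TPM overlapped. In the Ikzf1 libraries the order was Egr1 (221 ± 14.4), Jun (136 ± 11.7), Ier2 (95.8 ± 5.43), Junb (46.8 ± 4.43), Fos (20.7 ± 2.46), Fosb (12.7 ± 0.870), Nr4a1 (10.1 ± 0.349), Egr2 (3.55 ± 1.04), Egr3 (1.88 ± 0.164) and Egr4 (0.210 ± 0.0527), and no neighbours overlapped. Ier2 and Nr4a1 thus moved up, Junb and Egr3 moved down, and the other genes kept their places. Among the 16568 genes joined to transcripts, 40.1% had a higher mean TPM than Egr3 in control libraries and 77.1% in Ikzf1 libraries. For Egr1 the shares were 2.11 and 2.83%.

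**Figure D3:**
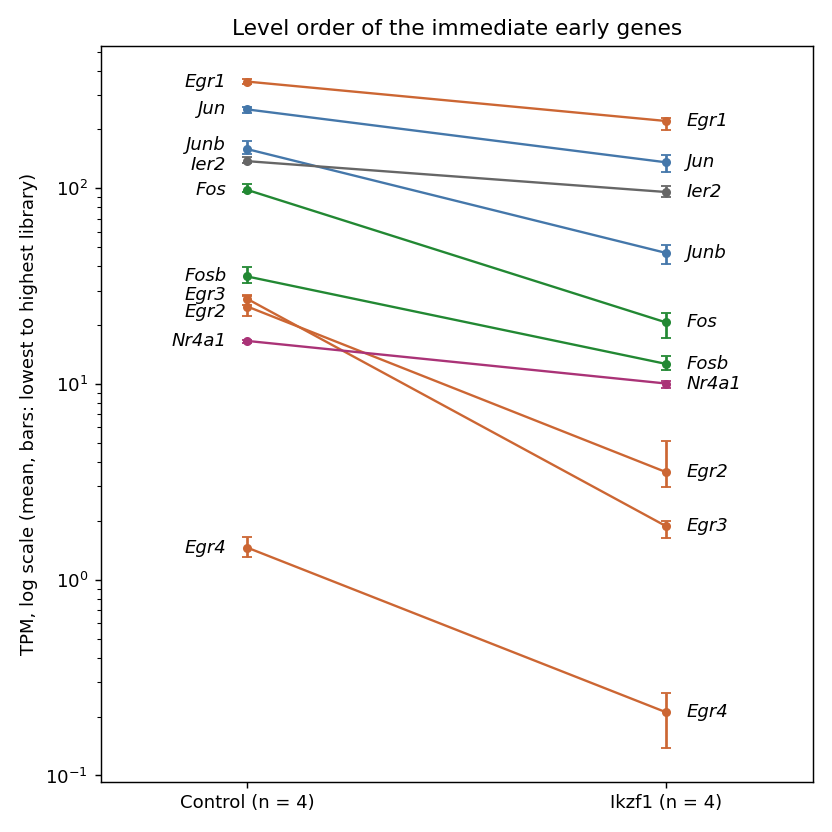
Mean TPM (vertical axis, log scale) of the 10 genes in control and Ikzf1 libraries (n = 4 each), with bars from the lowest to the highest library and a line joining each gene. Egr1 stays on top at 351 and 221 TPM, and Egr3 drops below Egr2 and Nr4a1 to 1.88 TPM. Rescaled to leave Ikzf1 out, the Ikzf1-library means are 270 TPM for Egr1 and 2.30 TPM for Egr3.

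Summed over the 10 genes, CPM went from 1443 ± 12.5 in the controls to 852 ± 53.9 in the Ikzf1 libraries. Egr1 and Jun dominated that sum: Egr1 made up 38.0% of it in control libraries and 47.01% in Ikzf1 libraries, and Jun 28.0% and 29.7%. Egr3, the member with the largest fold change, made up 3.32% and 0.485%. Relative spread among libraries was larger with Ikzf1 in all 10 genes, with coefficients of variation of 1.24% and 8.37% for Fosb and 9.53% and 24.5% for Egr4. The share of all genes with larger spread was not computed, so nothing is read from this count. Egr4 rested on 4 to 9 read pairs per Ikzf1 library, and the part of low read numbers in these spreads was not tested.

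The authors' deposited table gave log2 fold changes of -3.56 for Egr3, -2.48 for Egr2, -1.99 for Fos, -1.94 for Egr4, -1.52 for Junb and -1.24 for Fosb. It gave -0.66 for Jun, -0.49 for Nr4a1, -0.44 for Egr1 and -0.29 for Ier2. Of the 10, Egr4 differed most from the value fitted here. Whether the deposited fold changes were shrunk toward 0 is not given in the sources used here.

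The patterns nearest to Egr3 over the 8 libraries (root mean square distance of log2 CPM, each gene set to its control mean) were those of Nr1d1 at 0.14, Myod1 at 0.27, Ppl at 0.28, Serpinb8 at 0.32 and Obox6 at 0.35. Nr1d1, a circadian nuclear receptor, was at 120.5 ± 3.14 CPM in the controls and 10.3 ± 1.12 CPM in the Ikzf1 libraries. No other member was among these 5.

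Of 35 further immediate early genes, 25 fell, 4 rose and 6 did not pass edgeR's adjusted threshold, where 29.9% of all genes fell and 29.4% rose, with a median log2 fold change of -0.62 against 0.00 over all genes. This list was chosen with earlier results of these data known, so its counts are given as a description. The genes of this list with the largest changes all fell. Ccn2 and Ccn1, secreted matricellular proteins, went from 31.7 ± 2.66 to 4.23 ± 0.915 CPM (log2 fold change -2.90, SE 0.11, edgeR adjusted p = 2.7e-17) and from 46.3 ± 3.82 to 14 ± 1.29 CPM (-1.73, SE 0.07, adjusted p = 1.03e-17). Myc, a regulator of growth, went from 72.7 ± 3.22 to 19.3 ± 2.28 CPM (-1.91, SE 0.07, edgeR adjusted p = 2.68e-19).

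Relatives of the 10 genes did not all move alike. Nr4a3 fell from 22.3 ± 1.74 to 6.69 ± 0.564 CPM (log2 fold change -1.74, SE 0.09, edgeR adjusted p = 7.56e-16), while its relative Nr4a2, named after its value was seen, rose from 49.8 ± 1.09 to 70.8 ± 1.80 CPM (0.51, SE 0.05, adjusted p = 3.84e-10). Of the AP-1 genes outside the 10, also named after their values were seen, Fosl1 had a log2 fold change of -1.11 and Fosl2 of -0.88, both past the threshold. Jund, at 216 ± 21.4 and 243 ± 19.5 CPM, did not pass it (0.17, SE 0.07, edgeR adjusted p = 0.0527), and was called higher under 5 of 15 alternatives, with DESeq2 and without control replicate 1 among them.

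Npas4 and Arc, known from neuronal activity and named for the size of their changes, fell as well. Homer1 of the same list, named after its value was seen, changed less (log2 fold change -0.14, SE 0.05, edgeR adjusted p = 0.0333). Its call was lost under some alternatives. Arc, which acts at synapses, went from 45.5 ± 1.98 to 19.4 ± 2.24 CPM (log2 fold change -1.23, SE 0.07, edgeR adjusted p = 7.04e-15), and the sparse Npas4 from 2.61 to 0.88 CPM (-1.56, SE 0.27, adjusted p = 1.59e-05). Zfp36, which destabilises AU-rich messenger RNAs, had a log2 fold change of -1.34 and Nfkbiz, a nuclear regulator of NF-kappaB targets, of -1.11. The 4 that rose were Klf4 (log2 fold change 0.59), Nr4a2 (0.51), Btg1 (0.47) and Plk2 (0.20). Plk2 was at -0.01 on the TPM scale, where the median of all genes shifted to -0.22.

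**Figure D4:**
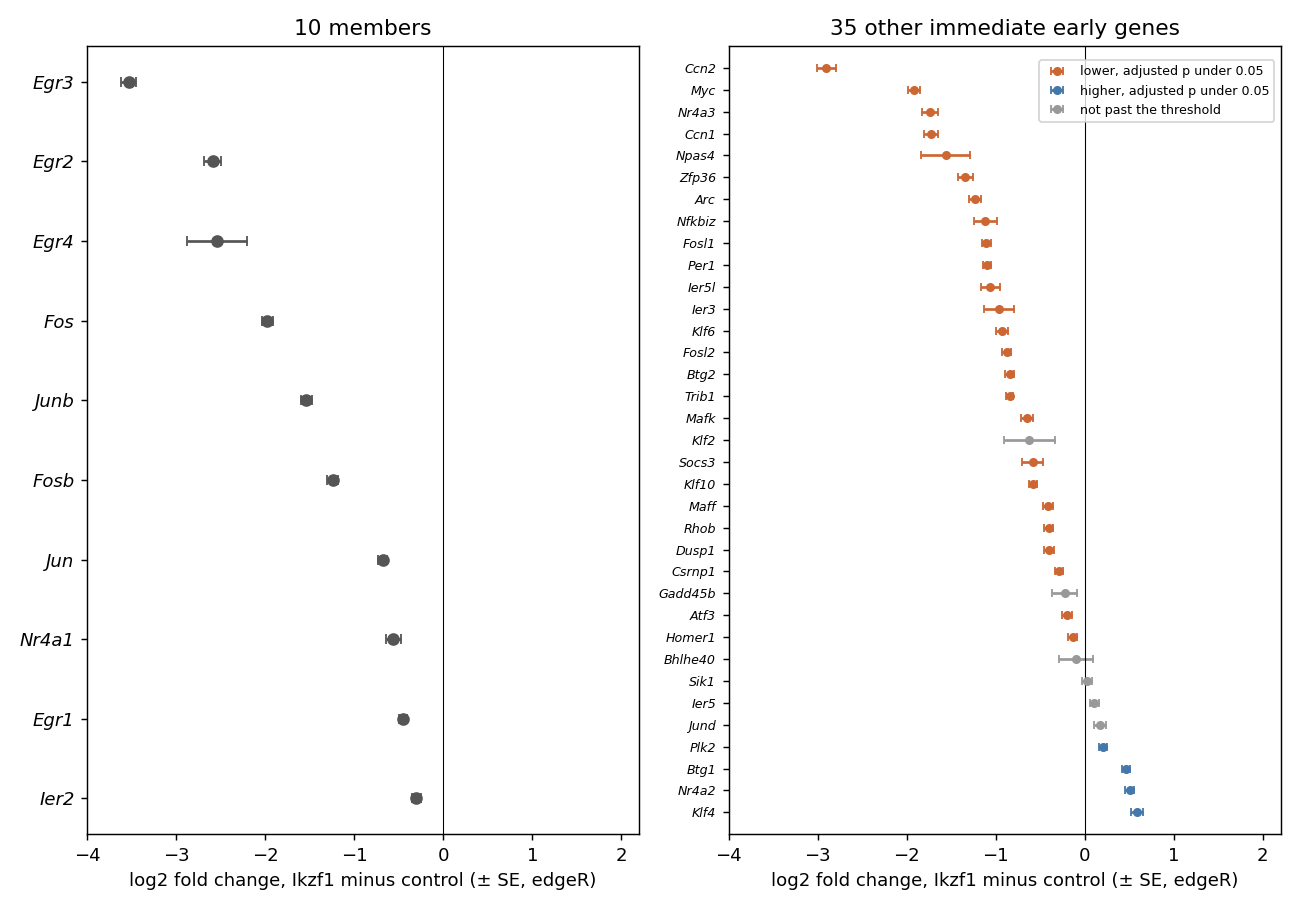
Log2 fold change, Ikzf1 minus control, with its SE from edgeR (horizontal axis) for the 10 genes (left, grey, shown without a test) and 35 further immediate early genes (right, coloured by the adjusted threshold of 0.05). The 10 genes run from -3.54 for Egr3 to -0.30 for Ier2, and the further genes from -2.90 for Ccn2 to 0.59 for Klf4. The further genes were also chosen with earlier results of these data known.

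Of 37 kinases and factors that act on the response elements of these genes, 13 rose, 8 fell and 16 did not pass, with a median log2 fold change of 0.02. Their 21 calls were near the 59.3% of all genes called. On the TPM scale, where the median of all genes shifted to -0.22, the split was 5 higher and 20 lower. The largest changes were those of Mef2c, a MADS box factor, from 0.288 to 2.17 CPM (log2 fold change 2.90, SE 0.33, edgeR adjusted p = 1.49e-08), and of the kinase genes Rps6ka1 (1.67) and Camk4 (1.58), which rose, and Rps6ka4 (-1.34), which encodes a kinase that phosphorylates Creb1 and fell. Srf was at 98.4 ± 5.19 and 88.6 ± 7.69 CPM (log2 fold change -0.15, SE 0.06, edgeR adjusted p = 0.0207), a call lost under 5 of 15 alternatives. Creb1 was at 243 ± 3.70 and 288 ± 10.9 CPM (0.25 on the log2 scale).

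Of 8 partners of the AP-1 and Egr proteins, 7 were tested, 3 fell and 0 rose, against 59.3% called over all genes. Nab2, a corepressor bound by Egr proteins, went from 58.2 ± 2.69 to 29.1 ± 2.00 CPM (log2 fold change -1.0, SE 0.06, edgeR adjusted p = 1.37e-14). Jdp2, a repressive AP-1 partner, had a log2 fold change of -0.72, and Nab1 one of -0.15 that lost its call under 5 of 15 alternatives. With TPM in limma, where the median of all genes shifted to -0.22, 6 of the 7 were called lower. Without control replicate 3, the 3 calls became 2 lower and 1 higher, the higher one being Batf3.

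Of 13 heat shock genes, which respond to handling, 4 rose, 3 fell and 6 did not pass, with a median log2 fold change of -0.02. These 7 calls were also near the 59.3% of all genes. Hspb1, a small chaperone, went from 20.9 ± 0.783 to 5.25 ± 1.09 CPM (log2 fold change -2.0, SE 0.11, edgeR adjusted p = 3.1e-15). The others past the threshold that were largest were Dnajb1 (0.32), Hspd1 (-0.30) and Hsph1 (-0.26). In TPM, where the median of all genes shifted to -0.22, 0 were called higher and 7 lower. The part of handling or stress in the levels of the immediate early genes was not tested.

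Markers of cell classes the sort could hold also differed between the groups, where 29.9% of all genes fell and 29.4% rose. The summed CPM of 10 progenitor markers ranged from 1356 to 1469 in the controls and from 1092 to 1131 in the Ikzf1 libraries (6 fell, 1 rose). The 7 photoreceptor precursor markers ranged from 778 to 899 and from 450.2 to 514 CPM (6 fell, 0 rose). The 8 ganglion cell markers summed to 364 to 385 and 183 to 200.2 CPM, and of the 7 tested 3 fell and 4 rose. Most of that sum was Nefl (117 and 18.8 CPM) and Nefm (226 and 94.04 CPM), which fell, while Pou4f1 (4.40 and 18.3 CPM), Rbpms (9.32 and 23.5 CPM) and Sncg (2.64 and 21.3 CPM) rose. The 8 amacrine and horizontal markers summed to 224 to 281 and 233 to 261 CPM, and of the 7 tested 3 fell and 0 rose.

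Of 10 microglial markers, 4 were tested and 2 fell, and the 8 joined to transcripts summed to 9.48 to 10.7 CPM in the controls and 5.49 to 8.44 CPM in the Ikzf1 libraries. Most of that sum was Cd68 (6.84 and 4.48 CPM), which fell. Among the sparse markers not tested, C1qa was at 0.271 and 0.134 CPM and Cx3cr1 at 0.537 and 0.193 CPM. In the other direction, C1qc was at 0.243 and 0.377 CPM and Trem2 at 0.270 and 0.299 CPM. Of 8 endothelial markers 6 were tested, and the 7 joined summed to 508 to 577 and 226 to 269 CPM (3 fell, 0 rose), nearly all of it Kdr (435 ± 32.9 and 215 ± 18.2 CPM) and Flt1 (102 ± 5.10 and 19.0 ± 1.70 CPM), with Pecam1 at 3.04 and 2.89 CPM and Cldn5 at 0.618 and 0.432 CPM. Of 7 pericyte and astrocyte markers, 5 were tested and 1 fell (6 joined, summing to 5.65 to 7.21 and 5.07 to 5.21 CPM). The part of these differences in those of the immediate early genes was not tested.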

How the data were processed

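RNA was depleted of ribosomal RNA and made into stranded libraries, per the labels' protocols. The authors deposited, per transcript, salmon's estimated counts of read pairs and TPM, per the file headers. The authors' deposited table gives, per the file headers, each gene's mean signal (normalised count over all 8 libraries), log2 fold change, standard error, Wald score and p-values. It was made with DESeq2, per the submitters' processing notes. Tool versions, index, annotation and strand setting are not given in the sources used here. Gene coordinates come from that table. Starts were raised by 1 to count from 1, and no other gene of the table overlaps a member. They were taken as GRCm38, since all 10 members overlap the RefSeq gene of that name there.

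Transcripts were joined to genes through the table's means (runs of up to 60 neighbouring transcripts, relative tolerance 5e-09). Of the 16815 whose mean reached 5, 16568 were joined (98.5%), holding 99.9% of reads. When the means were moved, 61 genes still found a run. For the 11905 whose mean reached 100, fold changes fitted here and deposited had a Pearson r of 0.99, across genes, which are not independent replicates.

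Estimated counts were summed, rounded, filtered (filterByExpr), scaled by TMM and compared with edgeR 4.0.16 (quasi-likelihood, robust, two-sided, R 4.3.3), with Benjamini-Hochberg adjustment over 15576 genes and a threshold of 0.05. Standard errors were derived from the fold change and its F value. On simulated counts for this comparison (15569 genes, 200 changed 2-fold), 99% were recovered and 7.04% of 213 calls were false. The simulation gave all genes the same dispersion and neither group an excess of Ikzf1 reads. With 9243 genes called in the data, its rates need not hold for them. Alternatives used DESeq2 1.42.0 and limma 3.58.1, among others. P-values measure the spread among these 4 libraries a group. The replicate numbers did not pair the samples (same-number correlations of -0.05 to 0.00), so no block was used.

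The members and gene lists were chosen with earlier results of these data known. Named were the members, Ikzf1, up to 8 called genes with the largest change in the list of further immediate early genes, up to 4 in each other list, and the 5 genes nearest to Egr3. The CUT&RUN peak lists (mm9) were not used here, since no annotation of that build was at hand, and the IgG library was not analysed here.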

Additional observations from a re-analysis of the deposited data

Results flagged for a closer look

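Among 28 groups of 4 values examined, 2 held a library far from the other three, and chance alone marks about 1 group in 20. For Egr1, Ikzf1 replicate 1 was low at 362 CPM, with the other libraries of its group at 412 to 415 CPM. For Egr2, the same library was high at 7.36 CPM, with the others at 5.09 to 5.21 CPM. The cause was not tested.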

How the results depend on the processing

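The 10 members were lower under all 15 alternatives (150 values, all negative), and 10 were past the threshold in each. In the main fit, 29.9% of all genes tested were called lower. The alternatives reuse the libraries of the contrast that chose the members, so these counts describe processing only and nothing more is read from them. Of these values, 9 moved by more than the spread between replicates, all on the log2(TPM + 0.1) scale with limma, where the median of all genes was -0.22 and 1857 genes were called higher and 7018 lower. Over the alternatives Egr3 lay between -3.79 and -3.50, Egr1 between -0.67 and -0.40 and Ier2 between -0.52 and -0.27. The count of all genes called ranged from 7871 (offset for transcript length) to 9301 (no filter on low counts). Leaving out 1 library gave 8654 to 9048 genes, 10 members, 28 to 31 further immediate early genes, 19 to 23 upstream regulators, 2 to 3 AP-1 and Egr partners and 7 to 8 heat shock genes. On the TPM scale 6 partners were called, all lower, against 3. Ikzf1 reads lower the TPM of all other genes in the Ikzf1 libraries, and the part of this in the 6 calls was not tested. With an offset for transcript length, 13 upstream regulators were higher and 5 lower. The order of the members' levels was the same at 10 of 10 positions on TPM without Ikzf1 and on CPM per kilobase. With the replicate number as a block, 8922 genes were called, and 10 members. That block changed no list count of members, further immediate early genes, upstream regulators, partners or heat shock genes. Egr4, with 4 to 9 read pairs per Ikzf1 library, was limited most by depth.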
